A study of Mus musculus with 4 samples.

Results

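The genes described here are 37 mouse genes of glucose breakdown and of the cell's response to low oxygen, a given list that holds glycolytic enzymes, the kinases that gate the pathway, enzymes of glycogen and genes of the HIF (hypoxia-inducible factor) system. They were found on the array by their gene symbol in the platform annotation, and each gene was read from its probe set of highest mean signal. Of the 37 genes, 32 had a probe set of their own and 31 were bright enough to be tested, among 9295 tested genes in all. No probe set is listed for Gpi1, Eno1, Pfkfb4 or Ankrd37, and the probe sets of Bnip3l are shared with its pseudogene, so these 5 genes have no value of their own here. Pygl, the liver-type glycogen phosphorylase, lay under the limit for dim genes, a mean signal of 2.18, and was not tested.

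The cells were C2C12, a mouse myoblast line that leaves the cell cycle in suspension and can be brought back into the cycle or into muscle differentiation. All cultures were held in G0, the resting state outside the cell cycle, in methyl cellulose suspension for 48 hours. One group received purified Wnt3A, a secreted ligand that stabilises β-catenin, at 50 ng/ml, and the other is labelled control. Every sample carries one treatment description, which names Wnt3A even for the controls, so the groups rest on the titles and treatment labels. Each group had 2 arrays labelled as biological replicates 1 and 2, and the labels do not say whether equal numbers share a culture day, nor whether the replicates were cultures started apart. Signals are the authors' values per probe set, read as log2. A level is such a signal, a difference is Wnt3A minus control, and a mean ± SD is over the 2 arrays of a group.

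Glycolysis splits glucose into pyruvate in the cytosol. Hexokinase traps the sugar, phosphofructokinase commits it, and lactate dehydrogenase can turn the pyruvate into lactate so that the pathway runs without oxygen. HIF-1 is a transcription factor whose alpha subunit is marked for destruction by prolyl hydroxylases while oxygen is present. In low oxygen it accumulates and drives most glycolytic genes, the kinase Pdk1 that keeps pyruvate out of the mitochondria, and the hydroxylase genes themselves. Muscle fibres carry their own isoforms of several of these enzymes, which come on with differentiation, while myoblasts use the forms found in most tissues.

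All 7 myoblast markers on the array were above the dim limit, with mean signals between 5.17 and 8.71. Among markers of other cell types, 4 of 7 leukocyte, 4 of 6 endothelial and 4 of 6 epithelial genes lay under that limit. Ptprc, Pecam1, Epcam and Cdh1 were among them. The brightest gene of each of these lists was above the limit, with mean signals of 6.886 (Cd14), 2.304 (Kdr) and 3.961 (Krt19). Of 7 fibroblast genes, 2 lay under the limit, but Col3a1, at a mean signal of 12.142, was brighter than every myoblast marker. The fibroblast list averaged 5.27 and 5.28 with Wnt3A, against 5.75 and 6.004 in control. The mean of the 7 myoblast markers was 7.26 and 6.41 on Wnt3A arrays 1 and 2, against 7.02 and 7.38 on the control arrays. Hybridization control spots averaged 7.353 and 6.9999 on the Wnt3A arrays, against 7.425 and 7.566 on the control arrays. The 18S ribosomal RNA spots averaged 10.5 and 9.40 with Wnt3A, against 10.4 and 7.21 in control, so control replicate 2 stood apart there. How far these array differences bear on the results below was not tested.

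Most of the genes had higher signals with Wnt3A, and most were also higher in replicate 2 than in replicate 1. For 22 of the 31 tested members both held, in both groups, a count that was not made over all tested genes. Of the tested members, 26 had a difference above 0 and 5 below 0, where 47% of all tested genes lay above 0. Within replicate number 1 the difference was above 0 in 26 members, and within replicate number 2 in 25. It was above 0 within both numbers in 23 members (74.2%), against 27.1% of all tested genes, and below 0 within both in 3, against 30.8%. The sizes were modest. The median difference of the members was 0.33, with 0.24 within replicate number 1 and 0.46 within replicate number 2, and the median of all tested genes was -0.02. The step between the replicates was larger than that: replicate 2 minus replicate 1 had a median of 0.69 on the Wnt3A arrays and 0.53 on the control arrays. Over all tested genes these medians were 0.03 and 0.07.

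**Figure D1:**
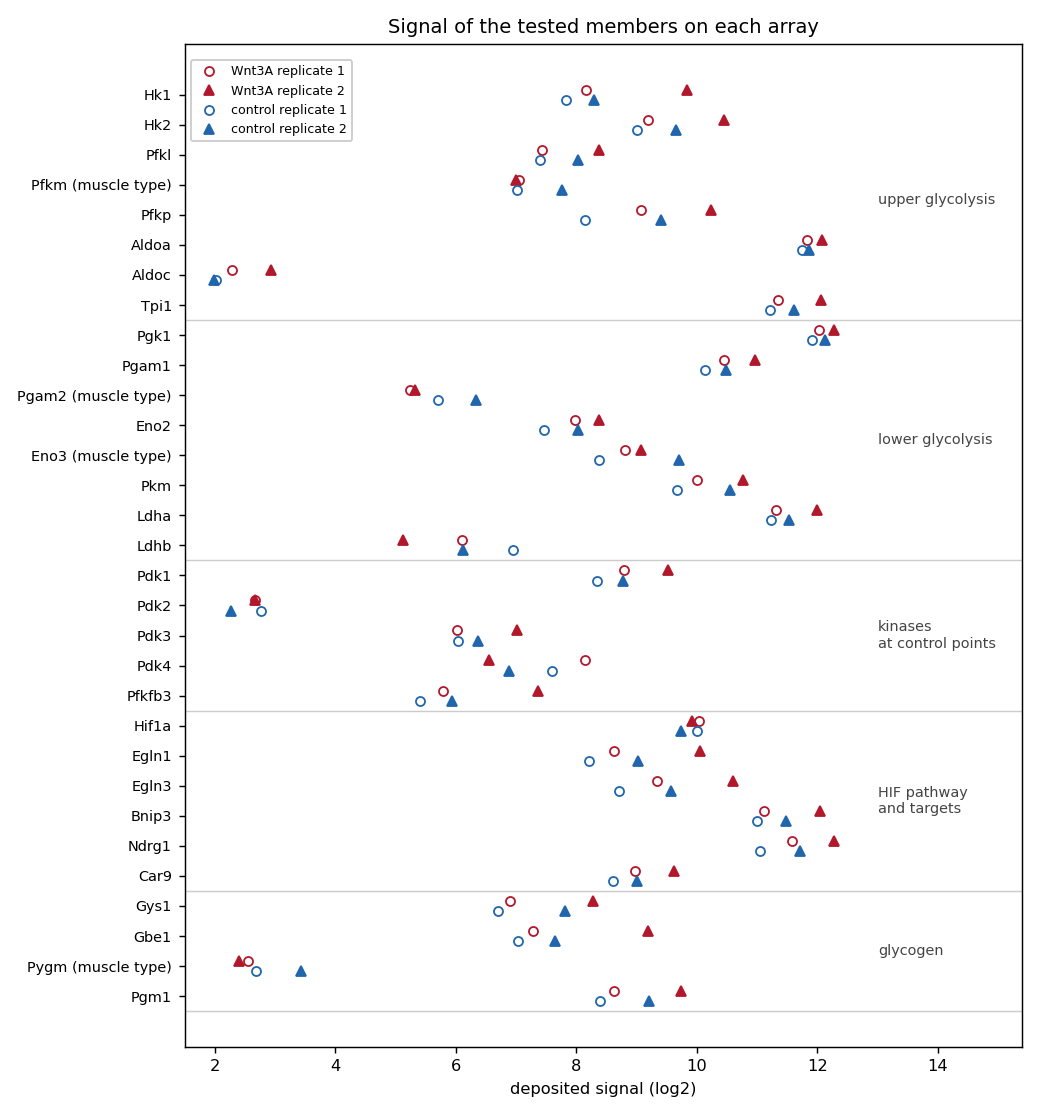
Signal (log2) of the 31 tested members on each array, in order of their role; red symbols are Wnt3A arrays and blue symbols control arrays, with circles for replicate 1 and triangles for replicate 2. In 20 members the order from low to high is control replicate 1, Wnt3A replicate 1, control replicate 2, Wnt3A replicate 2. Ldhb and the muscle-type isoforms depart from it. This order was not counted over all tested genes.

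The groups overlapped for most members. In 2 members each Wnt3A array was above each control, Aldoc and Pdk1 (6.45%), against 14.7% of all tested genes, and below each control in 3, Ldhb, Pgam2 and Pygm (9.68%), against 19.8%. Aldoc was tested only through its Wnt3A arrays, since both its controls lay under the dim limit. With limma and the group as the only term, 0 members passed an adjusted p of 0.05, as did 0 of all tested genes (0%). At an unadjusted p under 0.05 there were 0 members, against 5.68% of all tested genes; the lowest p of a member was 0.0558 (Pgam2, adjusted p = 0.911) and the highest 0.863 (Pdk4). The arrays limit what can be said: with 2 against 2, an exact permutation test of one value cannot go below 0.333. The direction of many members changed when an array was left out. Without Wnt3A replicate 2, 15 members were higher and 16 lower (median -0.00175). That comparison holds Wnt3A replicate 1 and both controls. Within replicate number 1, 26 members were above 0 (median 0.24), but the labels do not say whether equal numbers share a culture day. Without control replicate 1 the counts were 22 above 0 and 9 below (median 0.15). Every difference given below is a measured value that did not pass the test.

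**Figure D2:**
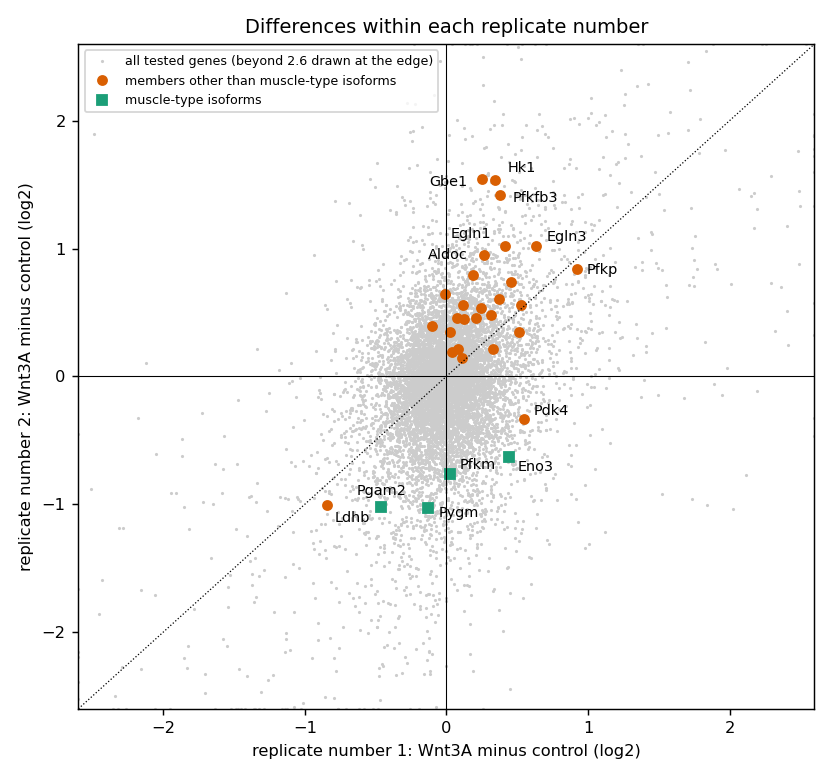
Wnt3A minus control (log2) within replicate number 1 (horizontal) and within replicate number 2 (vertical), for the tested members and, in grey, all tested genes; the dotted line marks equal differences. Of the 31 members, 23 lie at the upper right, above 0 on both axes, and the muscle-type isoforms lie below the horizontal line.

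Hk1 and Pfkp had the widest differences among the enzymes of the upper pathway. Hk1, the hexokinase of most tissues, was at 8.16 and 9.84 on the Wnt3A arrays, against 7.82 and 8.30 on the controls. Wnt3A replicate 2 stood well above the other arrays, and Wnt3A replicate 1 lay between the controls. The difference was 0.94 (SE 0.59, 95% confidence interval -0.62 to 2.50), and 0.104 without Wnt3A replicate 2. Hk2, the hexokinase that prevails in muscle and responds to HIF, read 9.19 and 10.45 with Wnt3A, against 9.002 and 9.657 in control, a difference of 0.49 (SE 0.49). Another probe set of Hk1, at a lower signal, gave 4.62 and 6.21 with Wnt3A against 4.25 and 4.03 in control, with no overlap.

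Pfkp, the platelet-type phosphofructokinase, read 9.06 and 10.24 with Wnt3A, against 8.14 and 9.40 in control. Its differences within replicate numbers 1 and 2 were 0.92 and 0.84, so both pairs gave nearly the same value although the arrays of a group lay 1.17 apart with Wnt3A and 1.26 apart in control. The fitted difference was 0.88 (SE 0.59, 95% confidence interval -0.65 to 2.42). A second, dimmer probe set of Pfkp gave 0.82 and 3.27 within the numbers, above both controls on each array. Pfkl, the liver-type form, was at 7.42 and 8.37 against 7.40 and 8.02 in control, and differed by 0.19. On its second probe set Pfkl gave -0.23 within replicate number 1 and 0.64 within number 2.

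Aldoa and Tpi1 were near the top of the signal range and differed little, and Aldoc was dim. Aldoa, the aldolase of muscle and most other tissues, read 11.82 and 12.08 with Wnt3A, against 11.74 and 11.86 in control, a difference of 0.15. Its 4 probe sets all gave differences above 0, from 0.15 to 0.30. Tpi1, triosephosphate isomerase, read 11.34 and 12.05 against 11.21 and 11.61 in control, a difference of 0.29 with 95% confidence interval -0.52 to 1.09. Aldoc, the aldolase known from brain, read 2.29 and 2.94 with Wnt3A, against 2.03 and 1.99 in control. Both controls lay under the dim limit, so the gene passed the filter only through the group where it is high, and its difference of 0.61 (SE 0.25) is given as a description. Its other probe set, under the limit, gave -0.22.

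In the lower pathway, Pgk1, the first step that yields ATP, read 12.02 and 12.28 with Wnt3A and 11.91 and 12.13 in control. Its 3 probe sets did not give one direction, with 0.13 on the brightest and -0.17 and 0.39 on the others. Of 13 members with several bright probe sets, it was the only one where the group differences of these differed in sign. Pgam1, the phosphoglycerate mutase of most tissues, was at 10.45 and 10.96 against 10.14 and 10.48 in control, a difference of 0.40 (SE 0.26). Eno2, the enolase named for neurons, was at 7.98 and 8.38 against 7.47 and 8.03 in control. It differed by 0.43, and within replicate number 1 by 0.51, more than within number 2 at 0.35.

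Pkm, pyruvate kinase, read 10.002 and 10.764 with Wnt3A, against 9.67 and 10.55 in control. The replicate 2 arrays of both groups lay above both replicate 1 arrays, and the difference between the groups was 0.27 (SE 0.41). Ldha, the subunit that favours making lactate, read 11.30 and 12.00 against 11.23 and 11.54 in control, a difference of 0.27 (95% confidence interval -0.49 to 1.02). Over the 13 tested glycolytic enzymes other than Pfkm, Pgam2 and Eno3, some of which muscle also uses, 12 were higher with Wnt3A and 1, Ldhb, was lower; the median was 0.29, and -0.00175 without Wnt3A replicate 2.

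Ldhb was the exception. It encodes the lactate dehydrogenase subunit of heart, which is suited to oxidising lactate. Its signal was 6.10 and 5.12 on the Wnt3A arrays, against 6.95 and 6.13 on the controls, so the groups touched but did not overlap. The means were 5.61 ± 0.70 with Wnt3A and 6.54 ± 0.58 in control. Ldhb differed by -0.93 (SE 0.46), and limma gave an adjusted p of 0.917; the 95% confidence interval ran from -2.14 to 0.29. The difference was about equal in both pairs, with -0.84 and -1.01 within the replicate numbers. All 4 probe sets of Ldhb gave lower values with Wnt3A, from -0.93 to -1.18, and within each replicate number. Ldhb also ran the other way between the replicates, since replicate 2 minus replicate 1 was -0.99 with Wnt3A and -0.82 in control. The difference for Ldha exceeded that for Ldhb by 0.91 within replicate number 1 and by 1.47 within replicate number 2.

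The muscle-type isoforms Pfkm, Pgam2, Eno3 and Pygm were set apart from the rest. Hk2, Aldoa and Gys1, which muscle also uses, stayed with the rest and were higher with Wnt3A, by 0.49, 0.15 and 0.33. The 4 set apart all had a difference below 0, with a median of -0.48. All 4 were lower within replicate number 2, but 2 of them, Pfkm and Eno3, were higher within replicate number 1. Leaving out control replicate 2 gave a median of -0.105, and leaving out control replicate 1 gave -0.857. Scaling to hybridization controls, which raised the difference of every gene alike and the all-gene median to 0.30, left 3 below 0 and put Eno3 at 0.225. Pgam2, the muscle phosphoglycerate mutase, was at 5.24 and 5.32 with Wnt3A, against 5.70 and 6.34 in control. Both Wnt3A arrays lay below both controls, with means of 5.28 ± 0.05 and, in control, 6.02 ± 0.45. Pgam2 differed by -0.74 (SE 0.29), with an adjusted p of 0.911 by limma and a 95% confidence interval from -1.51 to 0.03. Pygm, the muscle glycogen phosphorylase, was dim at 2.55 and 2.40, against 2.69 and 3.43 in control, and differed by -0.58 (SE 0.29).

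Pfkm, the muscle phosphofructokinase, read 7.05 and 6.99 with Wnt3A, against 7.02 and 7.76 in control. Control replicate 2 stood above the other arrays, which lay close together; without it the difference was 0.000305. Eno3, the muscle enolase, read 8.81 and 9.07 against 8.37 and 9.70 in control. Both Wnt3A arrays lay between the controls, and the difference was -0.09 (SE 0.47). The mean level of the 4 muscle types was 5.91 and 5.95 with Wnt3A, against 5.94 and 6.81 in control. A list of 20 tested sarcomere and muscle differentiation genes was also lower, at a mean level of 7.10 and 6.75 with Wnt3A, against 7.43 and 8.45 in control, and all 20 were lower with Wnt3A, with a median of -0.98 (-0.56 without control replicate 2 and -1.55 without control replicate 1). Ldb3 differed by -1.09, Actn2 by -0.96, Myl1 by -0.94 and Mylpf by -1.23. The part of the number of differentiated cells in the isoform values was not tested; in whole cultures, fewer cells of a type and less RNA per cell cannot be told apart.

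**Figure D3:**
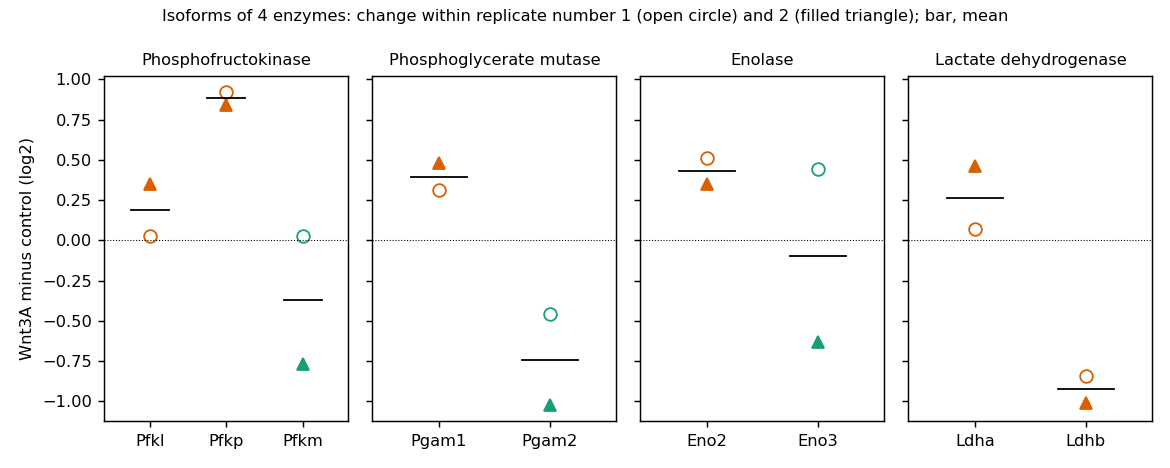
Wnt3A minus control (log2) for isoforms of phosphofructokinase, phosphoglycerate mutase, enolase and lactate dehydrogenase, within replicate number 1 (open circles) and 2 (filled triangles), with the mean as a bar; muscle types are green and the others orange. Pgam1 lies above 0 and Pgam2 below 0 in both pairs, as do Ldha and Ldhb, whereas Pfkm and Eno3 change side between the pairs.

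Set against its muscle counterpart within the same arrays, Pgam1, Pfkp, Pfkl and Eno2 each had the higher difference in replicate number 2. Pgam1 exceeded Pgam2 by 0.77 within replicate number 1 and by 1.502 within number 2, and Pfkp exceeded Pfkm by 0.90 and by 1.61. Eno2 exceeded Eno3 by 0.07 and by 0.98. Pfkl minus Pfkm was -0.00292 within replicate number 1 and 1.11 within number 2. These are differences between changes, given with no test.

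Among the kinases at the control points, Pdk1 and Pfkfb3 stood out. Pdk1, which phosphorylates pyruvate dehydrogenase and is a standard HIF target, was at 8.79 and 9.51 with Wnt3A, against 8.34 and 8.77 in control. The groups did not overlap, though the lower Wnt3A array was barely above the higher control. The means were 9.15 ± 0.51 with Wnt3A and 8.56 ± 0.31 in control. That is a difference of 0.60 (SE 0.32), for which limma gave an adjusted p of 0.917. The second probe set gave 0.56, but there the groups overlapped, at 7.99 and 9.29 with Wnt3A against 7.46 and 8.71 in control. Pfkfb3, whose product raises the main activator of phosphofructokinase, read 5.79 and 7.36 against 5.41 and 5.94 in control, a difference of 0.90 (SE 0.58). The pairs gave 0.38 and 1.42, and without Wnt3A replicate 2 the difference was 0.113.

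The other pyruvate dehydrogenase kinases gave no common picture. Pdk3 read 6.02 and 7.01 with Wnt3A, against 6.04 and 6.37 in control, with pair differences of -0.01 and 0.64. Pdk2 was dim, at 2.67 and 2.66 against 2.77 and 2.27 in control. Pdk4, the form induced by fasting and fatty acids, read 8.15 and 6.54 with Wnt3A, against 7.60 and 6.88 in control, with pair differences of 0.55 and -0.33. Its replicate 2 arrays were the lower ones in both groups, opposite to Pdk1.

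In the HIF group, all 6 tested genes were higher with Wnt3A within both replicate numbers, as were 27.1% of all tested genes. Genes of the HIF system outside this group did not all follow. Egln2 differed by -0.17 and Arnt by -0.05, while Vhl differed by 0.41 and Epas1 by 0.18. Within replicate number 1, Vhl and Epas1 were lower with Wnt3A, at -0.08 and -0.05. Egln2 and Arnt were lower within number 2, at -0.37 and -0.26. The 6 tested genes of the HIF group had a median difference of 0.51, with 0.39 within replicate number 1 and 0.58 within number 2, and 0.17 without Wnt3A replicate 2. Hif1a, the gene of the oxygen-regulated subunit itself, differed least of the 6 on the brightest probe sets. It read 10.03 and 9.93 with Wnt3A, against 9.996 and 9.734 in control, a difference of 0.12 (95% confidence interval -0.37 to 0.60). Other probe sets of Hif1a above the dim limit gave 0.30, with both Wnt3A arrays above both controls, and 0.45, with groups that overlapped. As the subunit is controlled mainly by protein breakdown, its transcript level is not a measure of HIF activity.

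Egln3 and Egln1 encode prolyl hydroxylases that mark HIF for destruction and are themselves HIF targets. Egln3 read 9.33 and 10.59 with Wnt3A, against 8.70 and 9.57 in control. Its pair differences were 0.63 and 1.02, its fitted difference 0.83 (SE 0.53, 95% confidence interval -0.55 to 2.21), and on its second probe set, at 7.37 and 8.31 against 6.55 and 7.34 in control, the groups did not overlap, though Wnt3A replicate 1 was barely above control replicate 2. Egln1 read 8.63 and 10.05 against 8.22 and 9.03 in control, a difference of 0.72 (SE 0.56), with pair differences of 0.41 and 1.02. Without Wnt3A replicate 2 the difference was 0.00572 for Egln1 and 0.197 for Egln3. The second probe set of Egln1 gave 8.49 and 9.51 against 7.80 and 8.17 in control, with no overlap either.

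Ndrg1, a stress-responsive gene induced by hypoxia, read 11.57 and 12.27 with Wnt3A, against 11.05 and 11.71 in control. The pairs gave 0.53 and 0.56, and its 5 probe sets gave fitted differences from 0.54 to 1.002, the smallest on the brightest. Car9, a membrane carbonic anhydrase widely used as a hypoxia marker, read 8.98 and 9.62 against 8.61 and 9.01 in control, a difference of 0.49 (SE 0.30). Bnip3, a mitochondrial protein of mitophagy and cell death, read 11.12 and 12.04 against 11.003 and 11.477 in control, with pair differences of 0.12 and 0.56. In Ndrg1, Car9 and Bnip3 both replicate 2 arrays lay above both replicate 1 arrays, and Wnt3A lay above control within each number.

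To show where the letters bound by HIF lie in these genes, the 250 bases before the transcription start were read from the RefSeq promoter table (assembly GRCm38.p6), which holds 35 of the 37 genes; Ndrg1 and Bnip3l are the other two. The core of the hypoxia response element was searched as ACGTG and as GCGTG on both strands; CACGTG, which also serves as an E-box, holds ACGTG on both strands and counts as 2 matches. ACGTG was present before at least one start of 19 of the 35 genes (54.3%), against 18.5% of all genes of the table and 25.2% of the tested genes. Either form was present in 29 of them (82.9%), against 41.5% of all genes and 61.5% of the tested genes. A match describes the letters and is no measure of binding. The following 6 windows are printed 5′ to 3′ in the direction of the gene, with every match in capitals: 4 genes that were higher with Wnt3A in both pairs, and Ldhb and Pgam2, which were lower in both.
Ldha: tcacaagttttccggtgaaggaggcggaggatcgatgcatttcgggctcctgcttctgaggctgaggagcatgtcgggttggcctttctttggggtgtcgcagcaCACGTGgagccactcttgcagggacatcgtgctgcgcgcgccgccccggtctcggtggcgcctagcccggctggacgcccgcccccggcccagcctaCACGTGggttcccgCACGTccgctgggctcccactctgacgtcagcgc
Bnip3: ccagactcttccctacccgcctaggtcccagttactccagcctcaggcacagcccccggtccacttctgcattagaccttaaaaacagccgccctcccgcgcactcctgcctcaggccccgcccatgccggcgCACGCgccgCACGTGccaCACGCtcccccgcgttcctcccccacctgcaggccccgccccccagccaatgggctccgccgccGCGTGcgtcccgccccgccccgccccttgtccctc
Pfkfb3: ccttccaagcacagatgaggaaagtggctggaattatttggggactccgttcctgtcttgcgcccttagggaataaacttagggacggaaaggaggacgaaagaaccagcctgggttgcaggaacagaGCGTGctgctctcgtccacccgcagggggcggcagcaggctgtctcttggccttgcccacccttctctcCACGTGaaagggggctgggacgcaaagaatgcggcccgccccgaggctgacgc
Egln3: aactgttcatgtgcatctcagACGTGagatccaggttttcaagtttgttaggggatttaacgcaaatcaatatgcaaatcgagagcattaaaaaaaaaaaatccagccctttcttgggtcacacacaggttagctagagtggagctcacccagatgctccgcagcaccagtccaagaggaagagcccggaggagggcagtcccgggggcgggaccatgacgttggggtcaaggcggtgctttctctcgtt
Ldhb: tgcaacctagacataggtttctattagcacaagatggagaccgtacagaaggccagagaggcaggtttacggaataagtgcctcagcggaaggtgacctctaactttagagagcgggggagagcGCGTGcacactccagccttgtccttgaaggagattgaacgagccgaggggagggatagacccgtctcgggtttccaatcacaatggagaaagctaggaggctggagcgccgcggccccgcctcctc
Pgam2: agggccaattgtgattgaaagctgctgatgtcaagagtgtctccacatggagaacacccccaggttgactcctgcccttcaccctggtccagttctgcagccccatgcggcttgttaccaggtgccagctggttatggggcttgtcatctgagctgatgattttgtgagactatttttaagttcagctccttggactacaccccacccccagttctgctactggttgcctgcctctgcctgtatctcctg
The table gives Ldha and Pfkfb3 a second start each, and the window with more matches is printed; the second window of Ldha held 1 match of GCGTG and that of Pfkfb3 held 1 of ACGTG. The Ldha window, chr7:46845554-46845803 on the plus strand, held 5 matches of ACGTG in 3 stretches between 30 and 145 bases before the start. The other windows are on the minus strand. Bnip3, chr7:138909507-138909756, held 5 matches in 4 stretches, and Pfkfb3, chr2:11502091-11502340, held 3 matches in 2 stretches. Egln3, chr12:54203875-54204124, held 1, which lay 225 to 229 bases before the start. Ldhb, chr6:142507958-142508207, held 1 match of GCGTG and none of ACGTG, and Pgam2, chr11:5803797-5804046, held neither form. The letters did not sort with direction: Pfkm and Pygm hold ACGTG before a start and were lower. Pygm was lower in both pairs, as were Ldhb and Pgam2, but its window is not printed. Hk1, Pfkp, Pfkl, Pdk1, Pdk4 and Aldoc hold only GCGTG and were higher, while Eno3 and Ldhb hold only GCGTG and were lower. Gbe1, Eno2, Gys1 and Tpi1 hold neither form, like Pgam2, and were higher.

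Of the 4 tested glycogen genes 3 were higher with Wnt3A, in both replicate numbers, and Pygm, described above, was lower. Gys1, the glycogen synthase of muscle and most tissues, read 6.90 and 8.27 with Wnt3A, against 6.69 and 7.81 in control; replicate 2 stood above replicate 1 by 1.37 with Wnt3A and by 1.12 in control, and the difference between the groups was 0.33 (SE 0.61). On its second, dimmer probe set Gys1 gave -0.22 within replicate number 1 and 2.18 within number 2. Gbe1, the branching enzyme, read 7.28 and 9.19 with Wnt3A, against 7.04 and 7.65 in control. Its difference was 0.90 (SE 0.68), from 0.25 within replicate number 1 and 1.54 within number 2. Pgm1, which links glycogen to glycolysis, read 8.63 and 9.74 against 8.39 and 9.20 in control, a difference of 0.39. Pygl, under the dim limit, read 1.89 and 2.88 against 1.39 and 1.49 in control, with only Wnt3A replicate 2 above the limit.

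**Figure D4:**
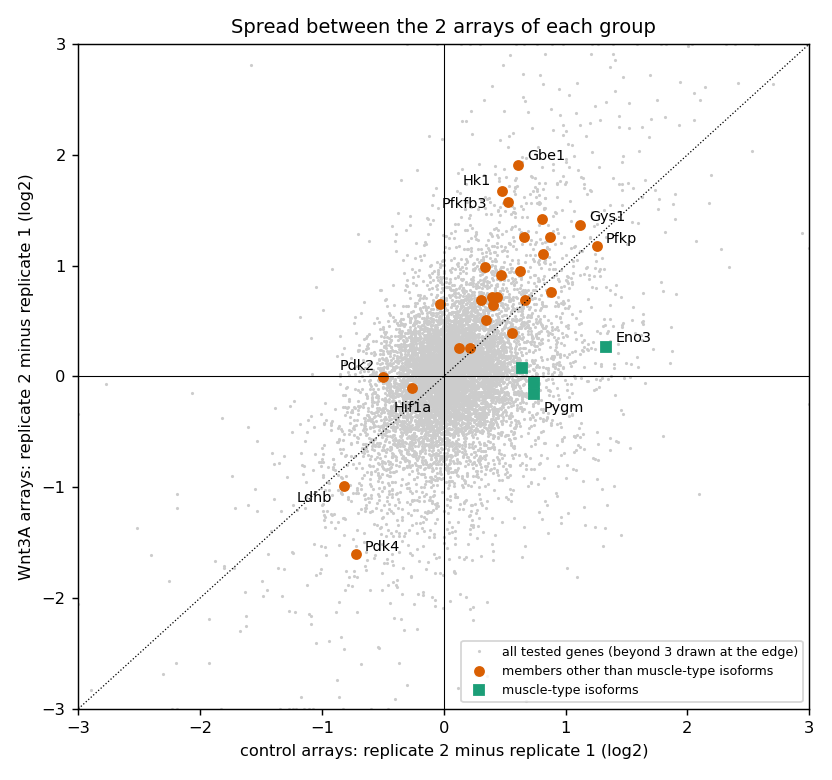
Replicate 2 minus replicate 1 (log2) on the control arrays (horizontal) and on the Wnt3A arrays (vertical), for the tested members and, in grey, all tested genes; the dotted line marks equal steps. Gbe1, Hk1 and Pfkfb3 lie far above the dotted line, the muscle types lie to the right of it, and Ldhb and Pdk4 lie at the lower left.

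The step from replicate 1 to replicate 2 was shared by both groups but not in equal size. Replicate 2 was higher in 25 of the 31 members on the Wnt3A arrays and in 26 on the control arrays. Of all 9295 tested genes, 4907 were higher in replicate 2 on the Wnt3A arrays and 5428 on the control arrays. The step was larger with Wnt3A in Gbe1, at 1.91 against 0.61 in control, in Hk1, at 1.67 against 0.48, and in Pfkfb3, at 1.57 against 0.53. In Pfkp and Ndrg1 the steps were nearly equal, at 1.17 against 1.26 and at 0.69 against 0.67. For Eno3 it was 0.26 with Wnt3A against 1.33 in control. Whether the replicate numbers mark a shared culture, and what set them apart, was not tested.

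Neighbouring pathways differed in direction. Of 34 tested HIF targets and hypoxia genes outside the 37, 27 were higher with Wnt3A and 7 lower, 20 were higher within both replicate numbers (27.1% of all tested genes were), and in 9 each Wnt3A array was above each control (14.7% of all tested genes). The median was 0.49, with 0.12 and 0.89 within the replicate numbers, but without Wnt3A replicate 2 it was -0.07 with 14 higher and 20 lower. The 4 of lowest p were Stc2, Bhlhe40, Slc16a3 and Plod2. Stc2, a secreted glycoprotein gene of the stress response, read 5.67 and 5.53 with Wnt3A against 4.17 and 4.11 in control (difference 1.46, SE 0.21, adjusted p = 0.333 in limma). The clock-linked repressor gene Bhlhe40 read 9.70 and 9.98 against 8.75 and 9.15 in control (0.88). The collagen lysyl hydroxylase gene Plod2 differed by 0.99. The lactate exporter gene Slc16a3 (0.70) was dim, at 2.68 and 3.38 against 2.57 and 2.10 in control. Its control replicate 2 lay under the dim limit, and its pair differences were 0.11 and 1.28. Stc2 and Bhlhe40 differed by about as much in replicate number 1, at 1.503 and 0.94, as in number 2, at 1.42 and 0.82, and 2 of the 34 genes had an unadjusted p under 0.05, a share close to the 5.68% of all tested genes.

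Of 11 other tested glycogen genes, 8 had a higher and 3 a lower signal, around a median of 0.38 (0.114 without Wnt3A replicate 2, 0.216 without control replicate 1, 0.574 without Wnt3A replicate 1); Pgm2 differed by 0.42, Ugp2, which makes UDP-glucose, by 0.38, Gsk3b, a kinase that inhibits glycogen synthase and acts in the β-catenin destruction complex, by 0.38 and Epm2a, a glycogen phosphatase gene, by 0.37. Of 20 tested genes of pyruvate entry and the TCA cycle, 16 were lower and 4 higher (median -0.12, between -0.225 without Wnt3A replicate 1 and -0.0313 without Wnt3A replicate 2, and -0.0479 without control replicate 1), though after scaling to hybridization controls 19 were above 0. Dlst differed by -0.41, Suclg2 by -0.31, Sdha by -0.29 and Sdhb by 0.22. Of 6 pentose phosphate genes 4 were lower, with a median of -0.13 (-0.0327 without Wnt3A replicate 2, and -0.207 to -0.237 when any other array was left out), and after that scaling 4 were higher. Pgd, the second dehydrogenase of the pathway, read 9.40 and 9.87 with Wnt3A, against 10.26 and 10.76 in control, with no overlap and a difference of -0.88 (SE 0.28, adjusted p = 0.809 in limma), beside Rpia (-0.36), Tkt (-0.23) and Rpe (0.16). Of 6 other tested genes of glycolysis and gluconeogenesis 2 were higher and 4 lower (4 higher without control replicate 2, 3 without Wnt3A replicate 1), and 6 higher after that scaling; Bpgm, the gene of the bisphosphoglycerate mutase, differed by 0.73, Pfkfb2 by 0.07, Ldhc by -0.13 and Pck2 by -0.14. That scaling moved the median of all tested genes to 0.30, since it adds the same amount to every gene's difference.

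**Figure D5:**
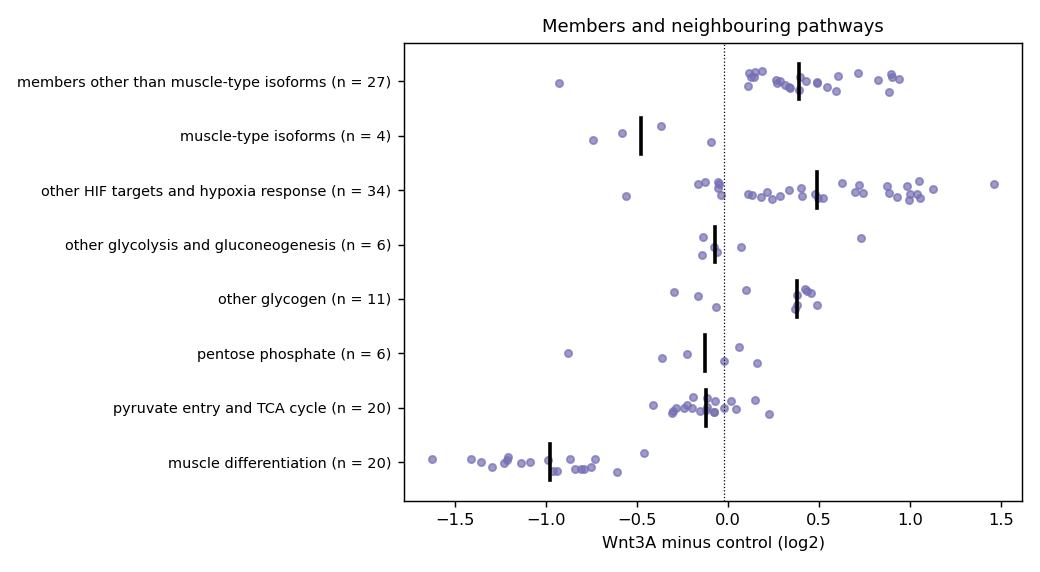
Wnt3A minus control (log2) for each tested gene of the members and of neighbouring lists, with the list's median as a bar and the median of all tested genes as a dotted line. The members other than muscle types and the other HIF targets lie mostly to the right, the TCA cycle genes near the dotted line and the muscle differentiation genes to the left.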

How the data were processed

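RNA of 4 C2C12 cultures was measured on Affymetrix arrays. The authors deposited processed log2 values, 1 per probe set, made with GCOS and PLIER, per the submitters' processing notes; the log base was read from the range of 0.50 to 13.23, since the labels do not state it. No label names a normalization, a background correction or a build. Of 22690 probe sets, 20380 carry 1 gene symbol, of which 20351 matched RefSeq (GRCm38.p6), 691 carry several and were not used for named genes, 64 are array controls and 1555 are unlisted. Each of 12393 genes was read from its probe set of highest mean, and the dimmest 25% were left out. Wnt3A was compared with control in limma 3.58.1 (R 4.3.3; lmFit, eBayes with an intensity trend), with Benjamini-Hochberg adjustment over 9295 genes and a threshold of 0.05. P-values measure only the spread between these arrays, which may be technical, and 2 arrays per group limit the precision. The members and the lists were chosen with earlier results of these data known. From each neighbouring list the 4 genes of lowest p were named. Alternatives were the replicate block, quantile normalization, centring, scaling to 18 hybridization control probe sets, other filters, the mean of probe sets, no trend, unmoderated statistics and leaving out each array. Pgk1, Aldoa and other genes with pseudogenes or close paralogs may share signal with them.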

Additional observations from a re-analysis of the deposited data

Results flagged for a closer look

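A probe set annotated to both Bnip3l and its pseudogene Bnip3l-ps was not used in the comparisons because it has no gene of its own. Bnip3l encodes a mitophagy receptor related to Bnip3. Its signal was 7.998 and 8.966 on the Wnt3A arrays, against 7.623 and 7.900 on the control arrays, a difference of 0.72 with both Wnt3A arrays above both controls. The other 2 probe sets of this pair differed by 0.41 and 0.51, higher within both replicate numbers, with groups that overlapped. Which of the gene and its pseudogene gives the signal was not tested.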

How the results depend on the processing

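Quantile normalization, median centring, no filter and the mean of probe sets kept the direction of every member they tested; 0 genes passed under each of them, without the intensity trend, with unmoderated statistics, or without any one array. Leaving out the dimmest 50% gave 1 passing gene. There, 1 of 28 tested members had both Wnt3A arrays above both controls, against 15.3% of all tested genes. Scaling to hybridization controls gave 49 passing genes and 11 such members (with 40.1% of all genes). The medians were 0.605 for the glycolytic enzymes other than Pfkm, Pgam2 and Eno3 and 0.834 for the HIF group. Eno3 turned to 0.225. That scaling adds the same amount to every gene's difference, and it moved the median of all tested genes to 0.30. What set the hybridization controls of the arrays apart was not tested.

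With the replicate number as a block, 83 genes passed (0.893%) and 0 members, the lowest adjusted p in limma being 0.108 (Pfkp); 13 members had an unadjusted p under 0.05, against 0 without the block, where the shares of all tested genes were 11.7% with it and 5.68% without. Deviations of equal numbers correlated at 0.478 over the tested genes, but the labels give the numbers no shared source, and with 2 pairs the samples are taken to share only a number.

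Leaving out each array in turn moved the non-muscle median between -0.00175 and 0.652, the HIF median between 0.169 and 0.848, the muscle-type median between -0.857 and -0.105, and the count of members above both controls, which 1 array against 2 meets more easily, between 4 and 23: it was 4 without control replicate 1 (25.6% of all tested genes) and without Wnt3A replicate 2 (28%), and 23 without control replicate 2 (32.7%) and without Wnt3A replicate 1 (37.1%). Member differences that turned ranged from -0.288 to 0.661 (Pfkl), -0.168 to 0.71 (Pkm), -0.35 to 1.02 (Gys1), -0.162 to 0.944 (Pgm1), -0.738 to 0.000305 (Pfkm), -0.761 to 0.572 (Eno3), -0.104 to 0.394 (Pdk2), -0.693 to 0.913 (Pdk4), -0.0163 to 0.247 (Hif1a), -0.137 to 1.12 (Hk2), -0.0711 to 0.642 (Tpi1), -0.00175 to 0.252 (Pgk1), -0.0791 to 0.612 (Ldha), -0.179 to 0.811 (Pdk3), -0.119 to 0.797 (Bnip3) and -0.0583 to 1.85 (Gbe1). The other members kept their sign, with the smallest differences at 0.0214 (Aldoa), 0.00572 (Egln1), 0.104 (Hk1), 0.113 (Pfkfb3), 0.141 (Pgam1), 0.168 (Car9), 0.196 (Ndrg1), 0.197 (Egln3), 0.236 (Pdk1) and 0.28 (Aldoc) without Wnt3A replicate 2, 0.151 (Eno2) and 0.254 (Pfkp) without control replicate 1, -0.432 (Ldhb) without Wnt3A replicate 2, and -0.42 (Pgam2) and -0.21 (Pygm) without control replicate 2. Dim genes such as Aldoc, Pdk2 and Pygm are limited by their signal over background.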

Other observations

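The array carries its own control probe sets for Gapdh, the glycolytic enzyme between aldolase and Pgk1, which is outside the 37 genes. The set at the 3′ end read 12.06 and 12.61 on the Wnt3A arrays, against 12.07 and 12.40 on the control arrays, and differed by 0.10. The sets at the middle and at the 5′ end differed by 0.10 and 0.15. All 3 were slightly below 0 within replicate number 1 and above 0 within number 2.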
